A study of Sus scrofa with 12 samples.

Results

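The genes described here build the route by which newly made proteins enter the endoplasmic reticulum (ER) and travel between the ER and the Golgi. They were chosen by a rule on gene symbols, with earlier results of these data known. The rule takes in the signal recognition particle and its receptor, the SEC61 channel with SEC62 and SEC63, and signal peptidase. It also takes in the translocon-associated (SSR) proteins, the COPII and COPI coats, the SEC22 proteins and the TMED cargo receptors. The rule found 56 of the 31781 gene identifiers in the table. Of these, 53 reached 1 FPKM in 3 or more libraries and were tested, and 46 reached it in all 11 libraries. The other 3 were SEC31B and TMED6, with no library above 0.190 FPKM, and SEC16B, listed at 0 in every library. SEC23A, SEC16A and TMED2 matched no identifier by symbol and were not analysed here.

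Proteins with a signal sequence are recognised by the signal recognition particle as they emerge from the ribosome and are handed, through its receptor, to the SEC61 channel of the ER membrane. Signal peptidase then removes the signal sequence. COPII-coated vesicles carry folded cargo from the ER towards the Golgi, and COPI-coated vesicles return ER residents and cycling receptors. In a blastocyst this route supplies the membrane and secreted proteins of the outer epithelium, the trophectoderm.

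The libraries come from pig (Sus scrofa) blastocysts, which the series title describes as parthenogenetically activated, that is developed from an egg without a sperm, so that all groups lack a paternal genome. There were 3 libraries of a fresh control, 2 of a group labelled vitrification, 3 of vitrification I and 3 of vitrification II. Vitrification is ice-free cooling to a glass. The title names liquid helium, and the labels say neither which group it was used for nor how the vitrified groups differed, nor embryo age. Every library is labelled as blastocyst, but the protocol describes sorted single cells, so that how many cells or embryos stand behind a library is not known. Nothing says that replicates came from separate cultures, and the p-values cover only library-to-library spread, part of which may be technical.

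Expression is given as FPKM, fragments scaled to gene length and library total, and sequencing depth is unknown. Summed FPKM per library ran from 439650 to 591894. The mitochondrially encoded genes took 39.9 ± 3.44% of it in fresh control (SD, n = 3), 45.3 ± 9.21% in vitrification (n = 2), 55.7 ± 10.6% in vitrification I (n = 3) and 19.6 ± 2.59% in vitrification II (n = 3). The 7 trophectoderm markers were all present. Their summed FPKM, nearly all of it from the keratins KRT8 and KRT18, was 10255 to 15261 in fresh control, 6404 to 16816 in vitrification, 2306 to 5587 in vitrification I and 13350 to 21709 in vitrification II. GATA3 and TFAP2C ran the other way between fresh control and vitrification I, with mean FPKM of 31.7 and 32.6 against 45.5 and 42.9. Of the epiblast markers, mean FPKM in the same group order was 7.63, 1.96, 0.830 and 50.6 for LIN28A, and 0.601, 4.07, 0.820 and 2.57 for NANOG. The 3 hypoblast markers summed to 10.6 to 19.3 FPKM in fresh control, 18.3 to 45.1 in vitrification, 16.4 to 23.3 in vitrification I and 19.0 to 26.5 in vitrification II. Of 4 cumulus or granulosa markers 3 stayed under 1 FPKM in every library. Of 4 leukocyte or erythroid markers PTPRC was listed at 0 throughout, CD3E and CD14 reached 1.04 and 1.10 FPKM, and HBB reached 10.4 in a vitrification library. Mitochondrial share and some marker levels thus moved with the groups compared below. Their part in the results was not tested, and fewer cells of a type and less RNA per cell cannot be told apart.

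Differences were tested with limma on log2(FPKM + 1) over all 9411 genes that passed the filter, and calls were made where the Benjamini-Hochberg adjusted p lay under 0.05. Because the typical gene itself moved, each log2 change below is given relative to the median of all genes tested, with the SE of the fitted change. That median lay at 0.19 for vitrification, -0.06 for vitrification I and 0.62 for vitrification II against fresh control, and at 0.68 for vitrification II against vitrification I. The calls rest on the change before this median was taken off. On this scale a fold change of low genes is understated. The comparisons with fresh control share its libraries.

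Across the 4 groups, the moderated F test called 25 of the 53 genes (47.2%), beside 42.7% of all genes tested. By role the calls took in 7 of 10 COPII genes, 6 of 8 TMED genes, 4 of 8 signal recognition particle and receptor genes, 3 of 6 SEC61 channel genes, 3 of 9 COPI genes, 1 of 4 SSR genes, 1 of 3 SEC22 genes and 0 of 5 signal peptidase genes.

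**Figure D1:**
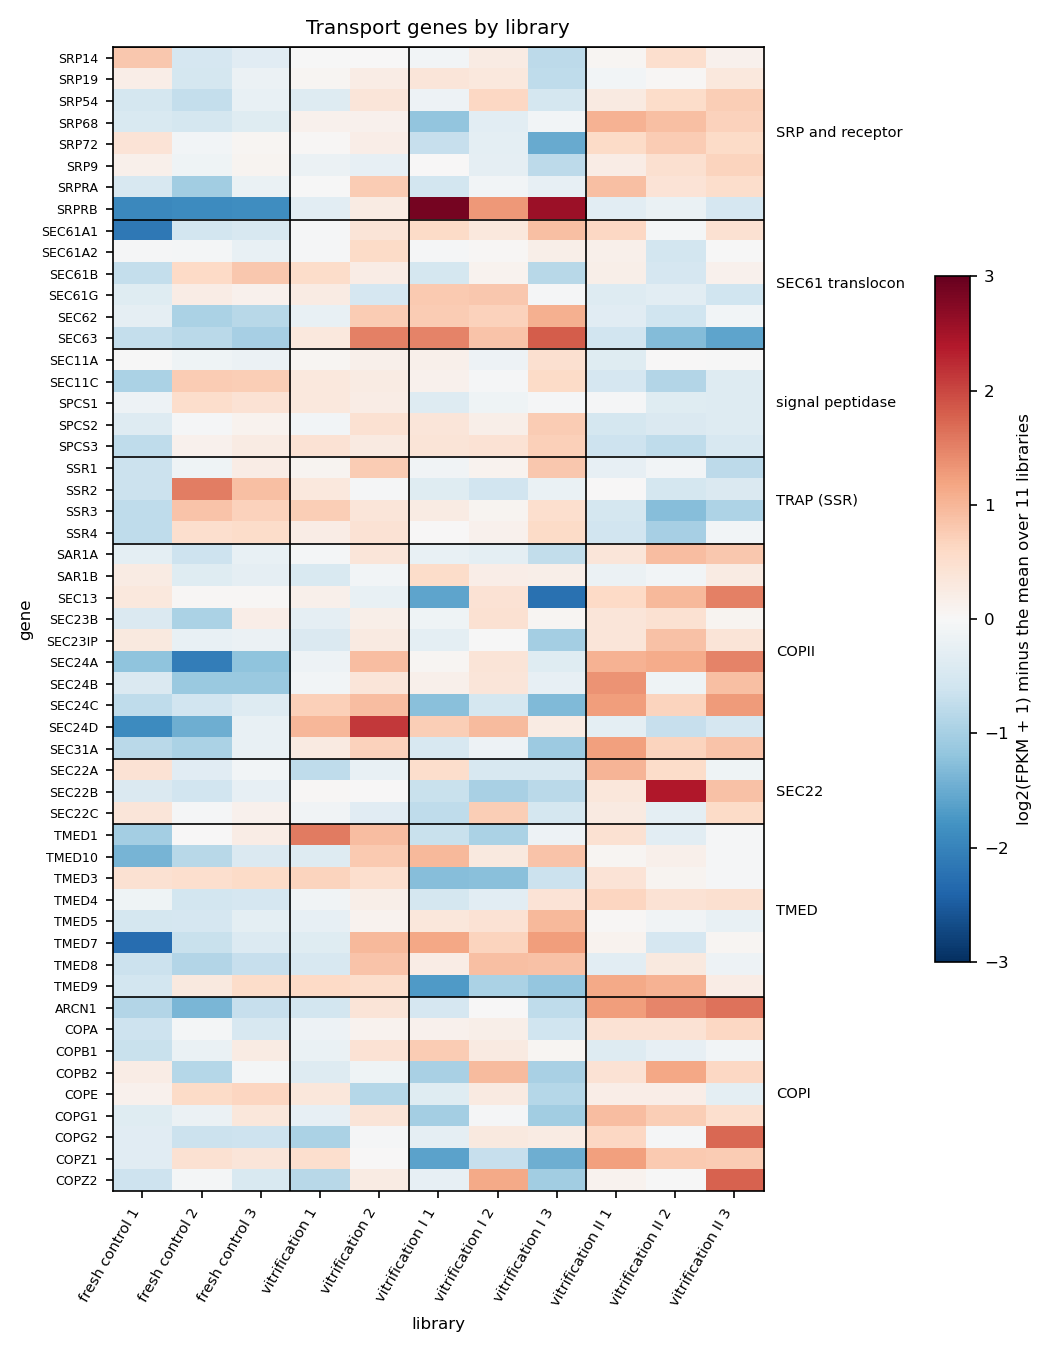
Log2(FPKM + 1) of the 53 tested genes (rows, by role) in each of the 11 libraries (columns), minus the gene's mean over the 11 libraries; red is above and blue below that mean. SRPRB is highest in the vitrification I libraries and ARCN1 in the vitrification II libraries. SEC63 is highest on average in vitrification I, with overlap with vitrification.

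In vitrification against fresh control, SEC24D was the 1 gene called, and it was higher. Among all genes 1.37% were called, 1.25% as higher. With unadjusted p-values under 0.05, 15 of the 53 transport genes were higher and 0 lower. Of all 9411 genes tested, 1430 (15.2%) were higher and 279 (2.96%) lower at that cut. The median relative change of the 53 was 0.17.

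In vitrification I, 10 of the 53 genes rose against fresh control and 3 fell. Among all genes 18.6% were called, 8.85% higher and 9.77% lower, against 24.5% of the transport genes. The genes that rose were the receptor subunit SRPRB, the channel genes SEC61A1, SEC62 and SEC63, the cargo adaptors SEC24A and SEC24D, and TMED5, TMED7, TMED8 and TMED10. Those that fell were TMED3, TMED9 and the coatomer gene COPZ1. Scaling to the non-mitochondrial total gave 14 higher and 1 lower, and ended the falls of COPZ1 and TMED9 (adjusted p up to 0.105). The shares of all genes above are from the main fit and cannot be set against these counts.

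In vitrification II, 12 of the 53 genes rose against fresh control and 1 fell, where 25.7% of all genes were called, 24.6% higher and 1.09% lower. The rise took in SEC24A, SEC24B, SEC24C, SEC31A and SAR1A of COPII, ARCN1 and COPG2 of COPI, SRP68, SRPRA, SRPRB, SEC61A1 and SEC22B, and the fall was of SSR3. The median relative change of the 53 genes was -0.04. This split depended on the scaling. Median centring gave 2 higher and 5 lower, quantile normalization 2 and 0, and the non-mitochondrial total 7 and 1. These counts cannot be set against the shares of all genes above, which are from the main fit. The 5 lower under median centring were SPCS1, SPCS2, SPCS3, SSR3 and TMED3. SEC24A and ARCN1 rose under all 18 alternatives, while each of the other called genes lost its call under quantile normalization (adjusted p from 0.0932 to 0.486).

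Vitrification II differed from vitrification I in 20 of the 53 genes, 13 higher and 7 lower, where 38.4% of all genes were called, 34.7% higher and 3.75% lower. The genes lower in vitrification II were SRPRB, SEC61G, SEC62, SEC63, SPCS2, SPCS3 and SSR3, all of the ER entry steps. Those higher were ARCN1, COPG1 and COPZ1 of COPI, SEC13, SEC24A, SEC24C, SEC31A and SAR1A of COPII, SEC22B, TMED3, TMED9, SRP68 and SRP72. Under median centring 4 were higher and 19 lower, under quantile normalization 5 and 19, and with the non-mitochondrial total 6 and 15. The shares of all genes above are from the main fit, so these counts cannot be set against them. Under these scalings the lower calls were not confined to ER entry. Under median centring and quantile normalization they also took in COPB1, SAR1B, SEC24D, TMED5, TMED7, TMED8 and TMED10. With the non-mitochondrial total they took in COPB1, SEC24D, TMED5, TMED7 and TMED10. Median centring ended the higher calls of COPG1, SAR1A, SEC13, SEC24A, SEC31A, SEC22B, SRP68, SRP72 and TMED3 (adjusted p from 0.0544 to 0.444). The SEC24A call also ended without vitrification I replicate 1 or 3 and without any vitrification II library (adjusted p up to 0.103), and the SAR1A call without replicate 2 or 3 of vitrification II (adjusted p up to 0.0658).

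**Figure D2:**
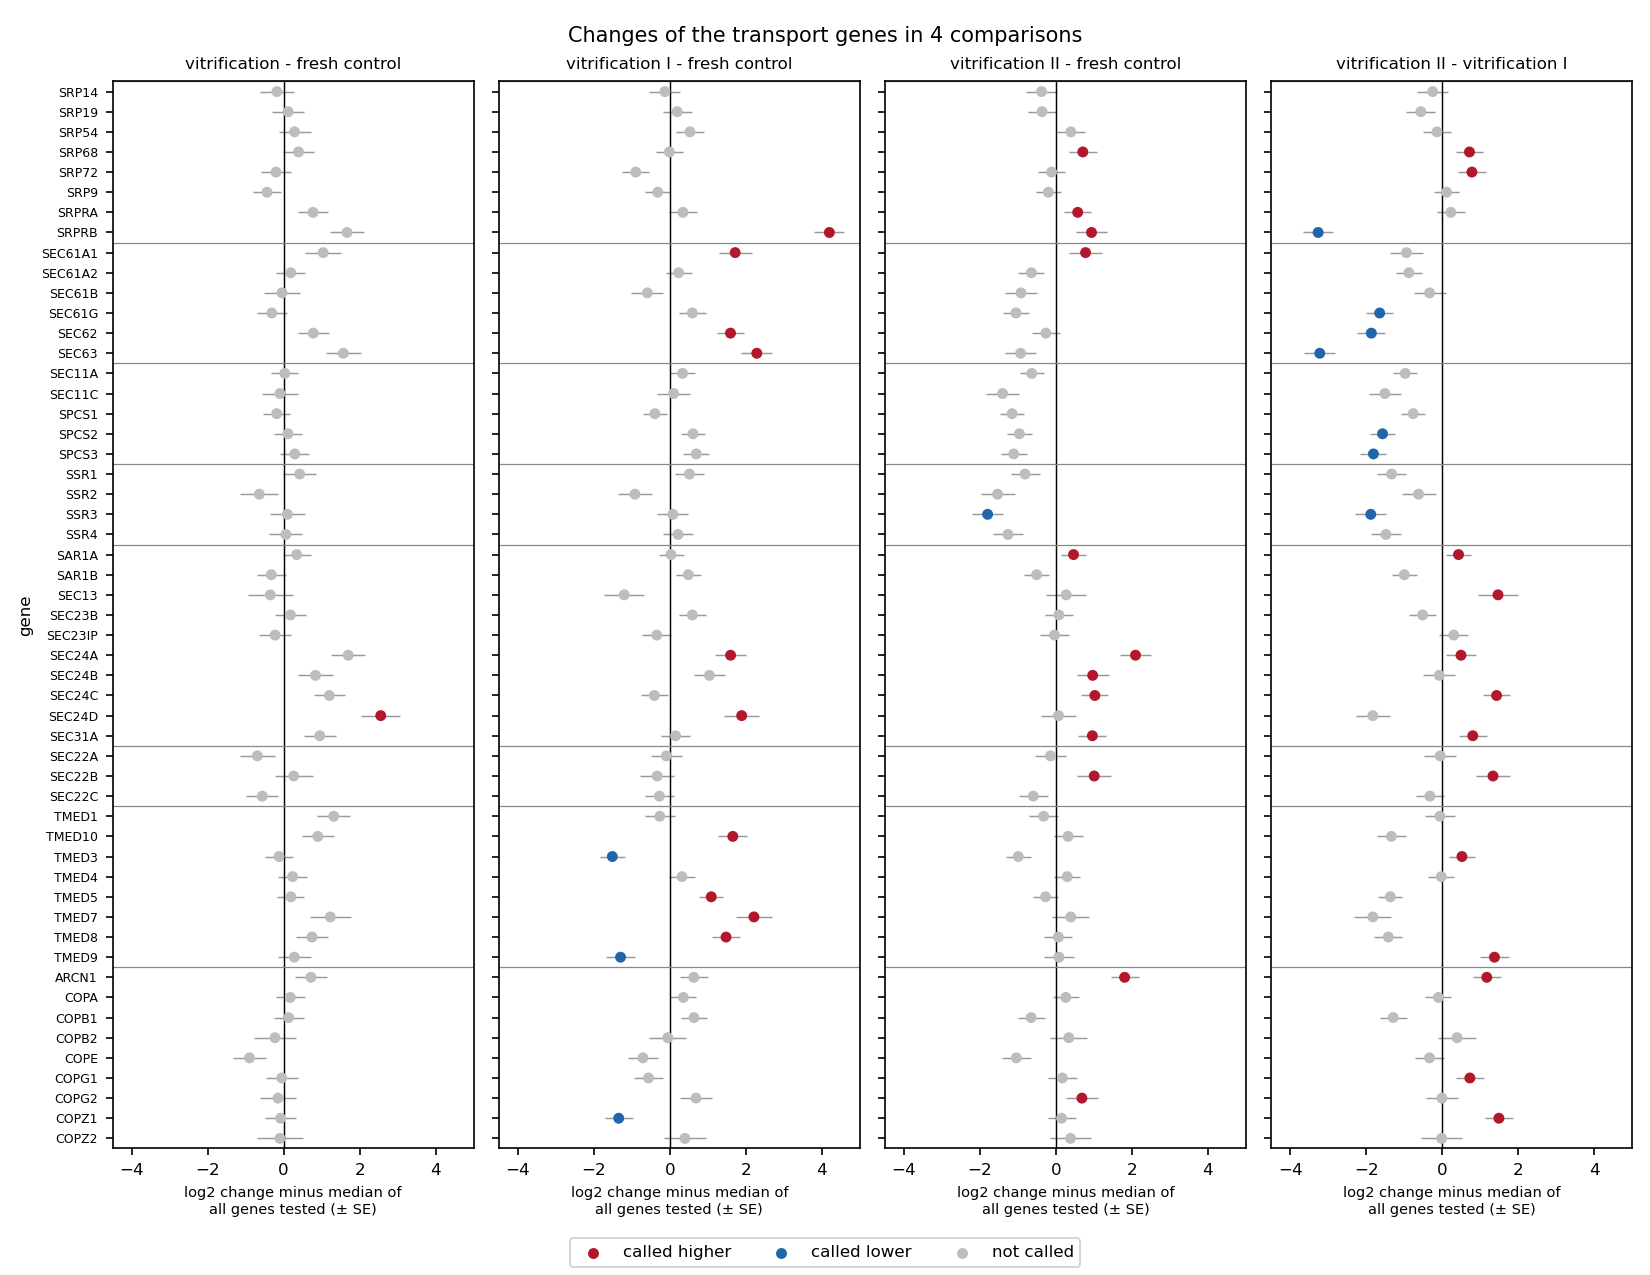
Log2 change of each tested gene minus the median of all genes tested (points, ± SE) in the 4 comparisons, with red for genes called higher, blue for genes called lower and grey for genes not called. SRPRB lies at 4.20 for vitrification I against fresh control and at -3.26 for vitrification II against vitrification I.

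The signal recognition particle receptor has a peripheral subunit, SRPRA, which docks the particle, and a membrane-anchored subunit, SRPRB, which holds it at the ER. SRPRB stood at 8.68, 8.90 and 9.18 FPKM in fresh control, 28.4 and 42.9 in vitrification, 267, 90.1 and 217 in vitrification I, and 28.7, 31.1 and 25.1 in vitrification II. The vitrification I libraries did not overlap any other group, and all vitrified libraries lay above the fresh ones. SRPRB rose by 4.20 ± 0.40 in vitrification I (adjusted p = 3.7e-05) and by 0.94 ± 0.40 in vitrification II (adjusted p = 0.0118), and the change from vitrification I to vitrification II was -3.26 ± 0.40 (adjusted p = 0.000277). In vitrification the change of 1.67 ± 0.44 was not called (adjusted p = 0.0515). SRPRA ran in another order, at 15.4, 10.0 and 18.7 FPKM in fresh control, 21.6 and 37.9 in vitrification, 14.5, 20.6 and 18.1 in vitrification I, and 41.7, 29.2 and 32.0 in vitrification II. It was called in vitrification II (0.57 ± 0.36, adjusted p = 0.0260), a call that ended without replicate 1 or 3 of vitrification II or replicate 2 of fresh control (adjusted p up to 0.131).

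Within a library the ratio of SRPRB to SRPRA FPKM does not depend on the library total. It was 0.565, 0.888 and 0.490 in fresh control and 1.31 and 1.13 in vitrification. In vitrification I it ran from 4.37 in replicate 2 to 18.4 in replicate 1, above every other library, and in vitrification II 0.689, 1.06 and 0.783. These ratios are given as a description, without a test.

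**Figure D3:**
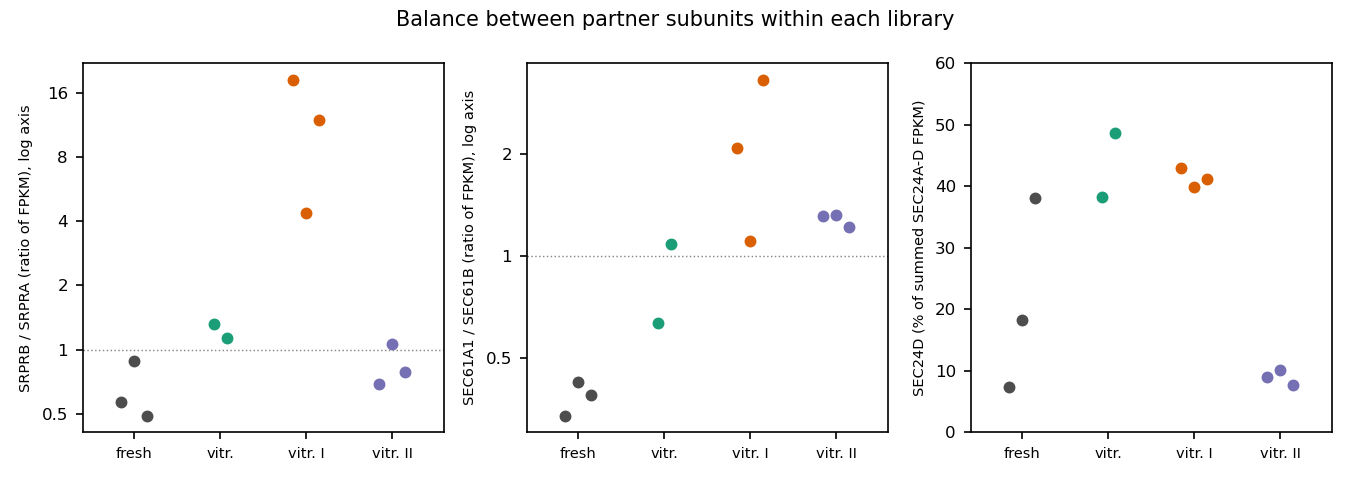
Ratio of SRPRB to SRPRA FPKM and of SEC61A1 to SEC61B FPKM (log axes), and SEC24D as a percentage of summed SEC24A to SEC24D FPKM (linear axis), with 1 point per library in the 4 groups. The SRPRB to SRPRA ratio reaches 18.4 in vitrification I and stays at or below 1.31 elsewhere.

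Of the subunits of the particle itself, SRP68 and SRP72 form a pair in its core. SRP68 had 2.75, 2.53 and 2.96 FPKM in fresh control, 4.62 and 4.57 in vitrification, 1.25, 3.13 and 3.85 in vitrification I, and 9.52, 8.54 and 7.30 in vitrification II, the highest group without overlap. It rose in vitrification II by 0.71 ± 0.36 (adjusted p = 0.0159), and this call ended without fresh control replicate 2 or 3 or vitrification II replicate 1 (adjusted p up to 0.0654). SRP72 had 38.2, 27.2 and 29.9 FPKM in fresh control, 29.3 and 33.0 in vitrification, 17.3, 23.4 and 9.38 in vitrification I, and 43.1, 49.3 and 43.3 in vitrification II. SRP68 and SRP72 were higher in vitrification II than in vitrification I by 0.72 ± 0.36 and 0.79 ± 0.36 (adjusted p = 0.00734 and 0.00564). SRP9, SRP14, SRP19 and SRP54, the GTPase that binds the signal sequence, were not called in the main fit of the 4 comparisons. A fit of 2 groups only called SRP54 higher in vitrification II against fresh control. Leaving out vitrification I replicate 2 or 3 did so too.

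In the SEC61 channel, SEC61A1 encodes the pore, SEC61B and SEC61G its small subunits, and SEC62 and SEC63 membrane partners that assist entry, SEC63 by recruiting an ER chaperone. SEC63 was at 8.06, 7.52 and 6.50 FPKM in fresh control, 17.6 and 41.7 in vitrification, 41.0, 26.0 and 51.5 in vitrification I, and 8.96, 5.08 and 4.01 in vitrification II. Vitrification I was far above fresh control and vitrification II, with no overlap. SEC63 rose by 2.29 ± 0.41 in vitrification I (adjusted p = 0.00269) and stood lower in vitrification II than in vitrification I, at -3.22 ± 0.41 (adjusted p = 0.000389), and both calls held under all 18 alternatives. In vitrification its change of 1.57 ± 0.46 was not called (adjusted p = 0.0638). SEC62 was also highest on average in vitrification I, at 11.1, 6.53 and 7.19 FPKM in fresh control, 11.6 and 23.9 in vitrification, 23.8, 22.8 and 29.9 in vitrification I, and 10.6, 8.73 and 12.9 in vitrification II. It rose in vitrification I by 1.60 ± 0.37 (adjusted p = 0.0108; 0.0538 without fresh control replicate 2) and was lower in vitrification II than in vitrification I, at -1.86 ± 0.37 (adjusted p = 0.0201). Leaving out replicate 1 or 2 of vitrification II, or replicate 3 of vitrification I, ended the second call (adjusted p up to 0.0778).

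SEC61A1 had 12.7, 40.1 and 42.4 FPKM in fresh control, 57.6 and 77.7 in vitrification, 88.3, 74.3 and 113 in vitrification I, and 91.7, 57.1 and 82.4 in vitrification II, so that every vitrified library lay above every fresh one. It rose in vitrification I by 1.72 ± 0.43 (adjusted p = 0.0158; 0.0519 without vitrification I replicate 3) and in vitrification II by 0.78 ± 0.43 (adjusted p = 0.0279). Without fresh control replicate 1, the lowest library, the second value was no longer called (adjusted p = 0.0851), nor was it without vitrification II replicate 1 or 3. The ratio of SEC61A1 to SEC61B FPKM was 0.339, 0.426 and 0.390 in fresh control, 0.638 and 1.09 in vitrification, 2.08, 1.11 and 3.32 in vitrification I, and 1.31, 1.32 and 1.22 in vitrification II. SEC61G, the most abundant channel gene per length, was at 194, 288 and 270.0 FPKM in fresh control, 293 and 175 in vitrification, 430.0, 438 and 242 in vitrification I, and 189, 198 and 164 in vitrification II. It was lower in vitrification II than in vitrification I, at -1.64 ± 0.35 (adjusted p = 0.0408). That call ended without fresh control replicate 2 or 3, without vitrification I replicate 1 or 2, and without any vitrification II library (adjusted p up to 0.134). SEC61A2, a second pore gene, and SEC61B were not called in the main fit of the 4 comparisons.

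**Figure D4:**
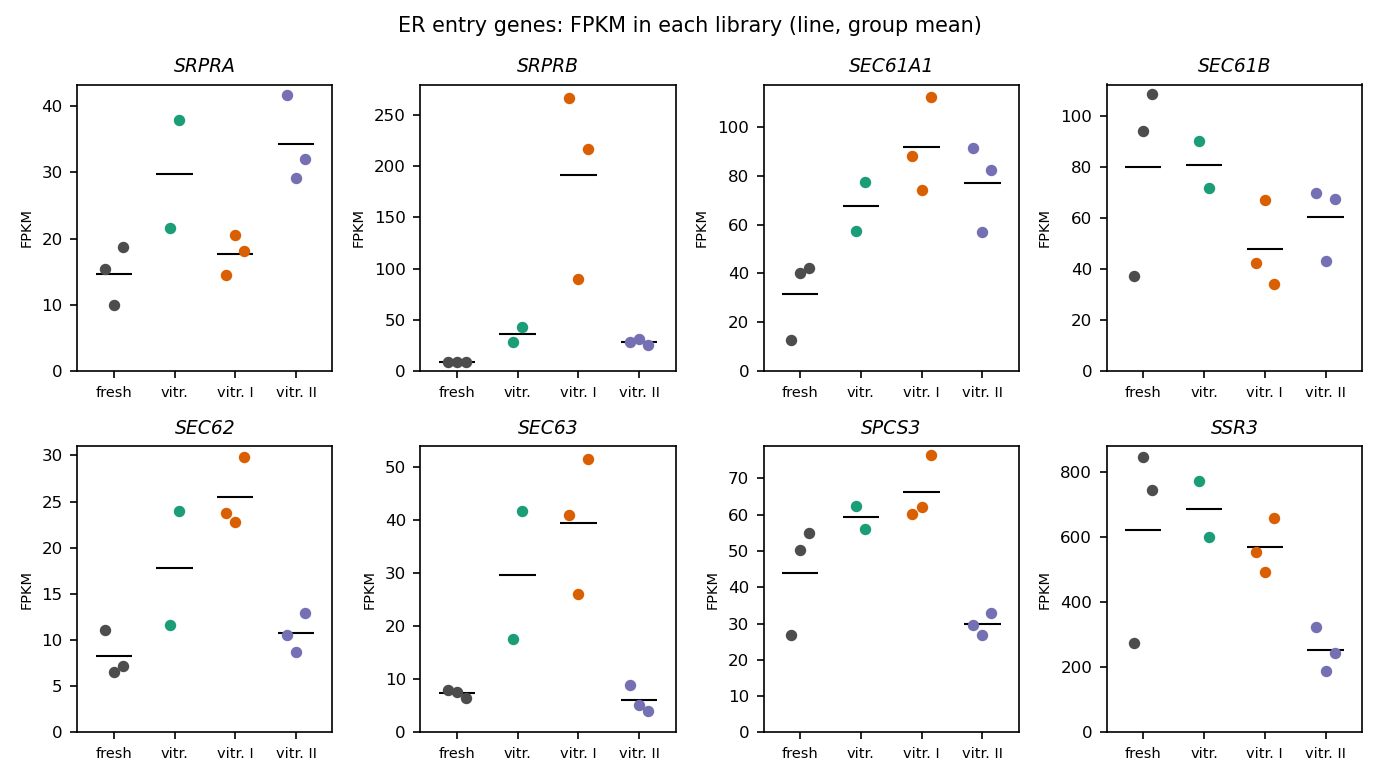
FPKM of 8 ER entry genes in each library (points) with the group mean (line), in fresh control, vitrification, vitrification I and vitrification II; each axis starts at 0. SRPRB and SEC63 reach 267 and 51.5 FPKM in vitrification I, and SPCS3 and SSR3 are lowest on average in vitrification II.

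Signal peptidase has the catalytic subunits SEC11A and SEC11C and the accessory subunits SPCS1, SPCS2 and SPCS3. In the main fit no gene of the 5 was called against fresh control. Median centring called SPCS1, SPCS2 and SPCS3 lower in vitrification II against fresh control. The non-mitochondrial total called SPCS2 and SPCS3 higher in vitrification I. SPCS3 had 27.0, 50.3 and 54.9 FPKM in fresh control, 62.5 and 56.1 in vitrification, 60.2, 62.1 and 76.4 in vitrification I, and 29.6, 26.8 and 33.0 in vitrification II. SPCS2 had 95.2, 122 and 135 FPKM in fresh control, 119 and 173 in vitrification, 162, 143 and 212 in vitrification I, and 86.6, 92.0 and 96.1 in vitrification II. Both were lower in vitrification II than in vitrification I, at -1.81 ± 0.34 (adjusted p = 0.0183) and -1.57 ± 0.32 (adjusted p = 0.0392), with no overlap between these groups. The SPCS3 call ended without vitrification II replicate 1 or 2 (adjusted p up to 0.0644) and the SPCS2 call without fresh control replicate 2 or 3, vitrification I replicate 1 or 3, or any vitrification II library (adjusted p up to 0.108). SPCS1 reached 115, 187 and 175 FPKM in fresh control, 162 and 150.2 in vitrification, 98.6, 117 and 125 in vitrification I, and 125, 99.2 and 99.0 in vitrification II. SEC11C was at 54.4, 180.3 and 178 FPKM in fresh control, 132 and 125 in vitrification, 116, 103 and 159 in vitrification I, and 73.9, 56.9 and 80.2 in vitrification II. For both, fresh control spanned a range that overlapped vitrification II. Over the 5 genes the median relative change was -1.11 for vitrification II against fresh control.

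The SSR genes encode a complex that sits beside the channel and aids the entry of some signal sequences. SSR3 had the highest FPKM of the transport genes when averaged over all 11 libraries, though not in each library, with 275, 848 and 747 FPKM in fresh control, 773 and 600.0 in vitrification, 555, 493 and 661 in vitrification I, and 324, 189.8 and 244 in vitrification II. The change of SSR3 in vitrification II was -1.80 ± 0.41 against fresh control (adjusted p = 0.0450), whose lowest library overlaps, and -1.88 ± 0.41 against vitrification I (adjusted p = 0.0307). The first call ended without fresh control replicate 2 or 3, vitrification replicate 1, vitrification I replicate 1 or any vitrification II library (adjusted p up to 0.207). The second ended without replicate 1 or 3 of vitrification I, or replicate 2 or 3 of vitrification II (adjusted p up to 0.114). SSR4 was at 267, 643 and 664 FPKM in fresh control, 534 and 619 in vitrification, 462, 501 and 679.5 in vitrification I, and 306, 227 and 431 in vitrification II. SSR2 was at 159.8, 721 and 469 FPKM in fresh control, 313 and 243 in vitrification, 194, 167 and 216 in vitrification I, and 252, 172 and 185 in vitrification II. Neither SSR2, SSR4 nor SSR1 was called in the main fit. Fresh control replicate 1 stood apart in this complex, with a summed SSR FPKM of 726 beside 2247 and 1924 in the other two. That library was the lowest of its group for 26 of the 53 genes, the highest of its group for 18 and the lowest of all libraries for 11. Fresh control replicate 2 was the lowest of its group for 22. Vitrification I replicate 3 was the lowest of all libraries for 13 and the highest of all for 10. These counts have no share of all genes beside them and describe the transport genes only.

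COPII vesicles form when the GTPase SAR1 recruits the inner coat, whose SEC24 subunit binds cargo, and the outer cage of SEC13 and SEC31. SEC24A, SEC24B and SEC24C had their highest mean FPKM in vitrification II, and SEC24D in vitrification. SEC24A had 1.20, 0.204 and 1.20 FPKM in fresh control, 3.59 and 8.67 in vitrification, 4.36, 5.72 and 2.96 in vitrification I, and 9.54, 10.00 and 13.3 in vitrification II, with all vitrified libraries above the fresh ones. It rose by 1.60 ± 0.40 in vitrification I (adjusted p = 0.0164; 0.0908 without fresh control replicate 2) and by 2.10 ± 0.40 in vitrification II (adjusted p = 0.000629). In vitrification its change was 1.70 ± 0.45 and was not called (adjusted p = 0.0516). SEC24D had 0.562, 1.11 and 4.00 FPKM in fresh control, 10.5 and 24.3 in vitrification, 8.60, 10.2 and 5.84 in vitrification I, and 3.69, 2.61 and 3.06 in vitrification II. It rose by 2.56 ± 0.51 in vitrification (adjusted p = 0.0215) and by 1.89 ± 0.46 in vitrification I (adjusted p = 0.0130; 0.0573 without fresh control replicate 2). The call in vitrification ended without fresh control replicate 2 (adjusted p = 0.0996) and without vitrification replicate 2 (adjusted p = 0.367).

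SEC24C had 2.54, 3.02 and 3.58 FPKM in fresh control, 8.82 and 10.3 in vitrification, 1.49, 3.12 and 1.39 in vitrification I, and 13.4, 8.59 and 13.5 in vitrification II. It rose by 1.02 ± 0.36 in vitrification II (adjusted p = 0.00526) and was higher there than in vitrification I by 1.43 ± 0.36 (adjusted p = 0.000517), a call held under all 18 alternatives. SEC24D made up 7.30, 18.3 and 38.0% of the summed SEC24 FPKM in fresh control, 38.2 and 48.6% in vitrification, 42.9, 39.8 and 41.2% in vitrification I, and 9.08, 10.2 and 7.68% in vitrification II. By this share vitrification II lay within the range of fresh control, and vitrification I just above it. SEC24B rose in vitrification II by 0.97 ± 0.42 (adjusted p = 0.0137), a call that ended without fresh control replicate 2 or 3 or vitrification II replicate 1 or 3 (adjusted p up to 0.0642).

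SEC31A, of the outer cage, rose in vitrification II by 0.96 ± 0.37 (adjusted p = 0.00804), from 5.69, 5.11 and 9.13 FPKM in fresh control to 26.7, 17.7 and 20.3. SEC13 had 24.5, 20.2 and 20.2 FPKM in fresh control, 21.8 and 16.7 in vitrification, 5.90, 26.7 and 3.33 in vitrification I, and 29.9, 39.5 and 57.5 in vitrification II. It was higher in vitrification II than in vitrification I by 1.47 ± 0.53 (adjusted p = 0.00584), where vitrification I replicate 2 stood near the other groups. SAR1A had 33.6, 26.5 and 35.1 FPKM in fresh control, 39.7 and 53.2 in vitrification, 35.5, 33.6 and 24.5 in vitrification I, and 53.8, 79.3 and 73.4 in vitrification II. Its rise in vitrification II was 0.46 ± 0.33 (adjusted p = 0.0267) and ended without fresh control replicate 2 or 3 or vitrification II replicate 2 or 3 (adjusted p up to 0.114). SEC23B, SEC23IP and SAR1B were not called in the main fit.

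SEC24A overlaps SAR1B in the RefSeq annotation, and the strand used in counting is not given in the sources used here, so reads could be shared. The ratio of SEC24A to SAR1B FPKM was 0.0731, 0.0197 and 0.107 in fresh control, 0.369 and 0.673 in vitrification, 0.215, 0.365 and 0.191 in vitrification I, and 0.802, 0.785 and 0.816 in vitrification II. In total 16 of 55 matched genes overlapped a protein-coding gene, SEC24D, SEC24C, COPG2 and SSR3 among them. Near-copies such as SEC61A1 and SEC61A2, COPG1 and COPG2 or SAR1A and SAR1B are uncertain where reads could be split between them.

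SEC22B is a SNARE of ER to Golgi fusion. It had 3.56, 3.15 and 4.21 FPKM in fresh control, 5.37 and 5.26 in vitrification, 2.91, 2.16 and 2.51 in vitrification I, and 6.84, 31.5 and 10.4 in vitrification II. Vitrification II was above all other libraries. SEC22B was higher there by 1.01 ± 0.45 against fresh control (adjusted p = 0.0169) and by 1.34 ± 0.45 against vitrification I (adjusted p = 0.00301). The first call ended without fresh control replicate 2 or vitrification II replicate 2, the highest library (adjusted p up to 0.0819). SEC22A was at 14.5, 8.06 and 9.86 FPKM in fresh control, 5.73 and 8.78 in vitrification, 15.4, 7.19 and 7.16 in vitrification I, and 22.4, 15.7 and 9.54 in vitrification II. SEC22C was at 1.25, 0.698 and 0.898 FPKM in fresh control, 0.611 and 0.381 in vitrification, 0.0266, 1.92 and 0.198 in vitrification I, and 1.10, 0.415 and 1.57 in vitrification II. For SEC22C both vitrification libraries lay below every fresh one, and for SEC22A they lay below every vitrification II library. Neither gene was called.

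The TMED (p24) proteins cycle between ER and Golgi and help load cargo into both kinds of vesicle. In vitrification I, 4 of the 8 tested (50%) rose against fresh control and 2 (25%) fell, beside 8.85% and 9.77% of all genes. Of these calls, that of TMED5 held under 9 of the 18 alternatives and that of TMED9 under 11. TMED10 had 27.1, 40.2 and 53.0 FPKM in fresh control, 54.9 and 126 in vitrification, 144, 88.4 and 132 in vitrification I, and 75.1, 80.5 and 70.4 in vitrification II. TMED7 had 6.51, 21.9 and 26.4 FPKM in fresh control, 27.2 and 70.0 in vitrification, 80.5, 57.4 and 86.0 in vitrification I, and 38.5, 24.9 and 36.7 in vitrification II. They rose in vitrification I by 1.66 ± 0.38 (adjusted p = 0.0110) and 2.21 ± 0.48 (adjusted p = 0.00796). TMED8 rose by 1.48 ± 0.37 (adjusted p = 0.0159; up to 0.0656 without fresh control replicate 2 or 3 or vitrification I replicate 3), and TMED5 by 1.09 ± 0.32 (adjusted p = 0.0352; up to 0.110 without any fresh control library, vitrification I replicate 1 or 3, or vitrification II replicate 2).

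TMED3 and TMED9 went the other way. TMED3 was at 18.4, 19.0 and 20.1 FPKM in fresh control, 21.2 and 19.0 in vitrification, 4.78, 4.93 and 7.99 in vitrification I, and 17.6, 13.8 and 12.7 in vitrification II. TMED9 was at 40.1, 73.8 and 87.1 FPKM in fresh control, 91.0 and 85.9 in vitrification, 17.7, 30.5 and 26.1 in vitrification I, and 132, 124 and 69.3 in vitrification II. The vitrification I libraries were below all others for both genes. TMED3 fell in vitrification I by 1.51 ± 0.33 (adjusted p = 0.00532) and TMED9 by 1.30 ± 0.39 (adjusted p = 0.0247). The TMED9 call ended without fresh control replicate 2 or 3 or vitrification I replicate 1 (adjusted p up to 0.117). It also ended with no filter, under quantile normalization, with the non-mitochondrial total and in a fit of 2 groups only. Against vitrification I, vitrification II was higher by 1.38 ± 0.39 for TMED9 (adjusted p = 0.00104) and by 0.52 ± 0.33 for TMED3 (adjusted p = 0.0106; 0.0503 without vitrification II replicate 1). In the main fit no TMED gene was called in vitrification II against fresh control. Median centring called TMED3 lower there, and a fit of 2 groups only called TMED4 and TMED10 higher.

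Among the subunits of COPI coatomer, ARCN1 encodes delta, COPZ1 zeta, COPG1 and COPG2 gamma, COPA alpha, and COPE epsilon. ARCN1 had 10.6, 7.18 and 12.1 FPKM in fresh control, 13.6 and 26.9 in vitrification, 14.1, 20.5 and 11.6 in vitrification I, and 50.2, 57.4 and 64.5 in vitrification II. It rose in vitrification II by 1.81 ± 0.37 against fresh control (adjusted p = 0.000713) and was higher there than in vitrification I by 1.18 ± 0.37 (adjusted p = 0.00150). Both calls held under all 18 alternatives. COPZ1 had 24.7, 43.7 and 40.7 FPKM in fresh control, 45.5 and 31.8 in vitrification, 9.75, 19.2 and 10.8 in vitrification I, and 75.0, 55.3 and 54.5 in vitrification II. It fell in vitrification I by 1.34 ± 0.37 (adjusted p = 0.0166) and was higher in vitrification II than in vitrification I by 1.50 ± 0.37 (adjusted p = 0.000527). The fall ended as a call without fresh control replicate 2 or 3 or vitrification I replicate 1 (adjusted p up to 0.0776), while the second held under all 18 alternatives.

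COPG1 had 17.6, 20.1 and 29.2 FPKM in fresh control, 19.1 and 30.3 in vitrification, 10.9, 22.6 and 10.6 in vitrification I, and 44.4, 38.8 and 33.2 in vitrification II, and was higher in vitrification II than in vitrification I by 0.73 ± 0.38 (adjusted p = 0.00915). COPG2 had 1.32, 0.880 and 0.892 FPKM in fresh control and 3.48, 1.85 and 8.72 in vitrification II. It rose in vitrification II by 0.68 ± 0.43 (adjusted p = 0.0373). That call ended without fresh control replicate 2 or 3 or vitrification II replicate 1 or 3 (adjusted p up to 0.172). COPE, the most abundant coatomer gene per length, was at 189, 259 and 272 FPKM in fresh control, 218 and 95.1 in vitrification, 134, 207 and 95.4 in vitrification I, and 197, 199 and 141 in vitrification II, and was not called. COPA, COPB1, COPB2 and COPZ2 were not called in the main fit either.

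**Figure D5:**
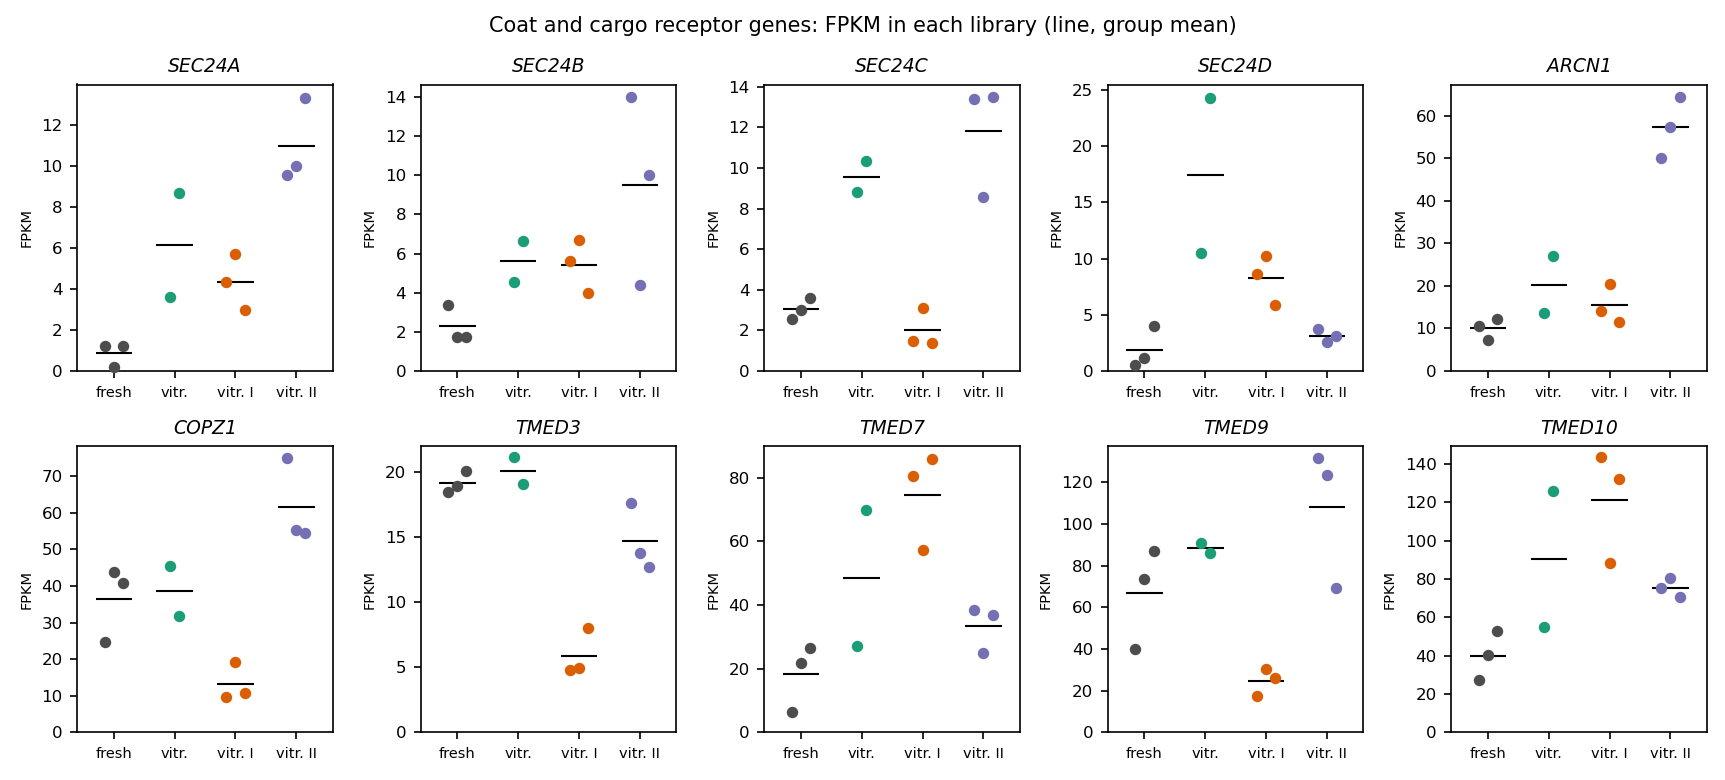
FPKM of 10 coat and cargo receptor genes in each library (points) with the group mean (line), in fresh control, vitrification, vitrification I and vitrification II; each axis starts at 0. ARCN1 is at 50.2 to 64.5 FPKM in vitrification II and at most 26.9 elsewhere, and TMED3 is at 4.78 to 7.99 FPKM in vitrification I.

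Other genes of the same route were counted from a list of 80 measured genes, and their counts stand beside the shares of all genes called: 8.85% higher and 9.77% lower in vitrification I against fresh control, 24.6% and 1.09% in vitrification II against fresh control, and 34.7% and 3.75% in vitrification II against vitrification I. Of the 14 oligosaccharyltransferase and TRAM genes, which glycosylate or help insert proteins at the channel, 2 rose in vitrification I, with STT3B, a catalytic subunit, at 3.12 ± 0.47 (adjusted p = 0.000904). In vitrification II against vitrification I, 0 were higher and 6 lower, led by MAGT1 at -3.17 ± 0.49 (adjusted p = 0.00140) and STT3B at -2.33 ± 0.47 (adjusted p = 0.0131; up to 0.0608 without replicate 1 or 3 of vitrification I or replicate 2 of vitrification II). Of the 14 EMC and GET genes, which insert other membrane proteins, 2 rose and 3 fell in vitrification I, among them GET3 at -1.53 ± 0.36 (adjusted p = 0.00796), and 4 (28.6%) were higher and 0 lower in vitrification II than in vitrification I, with GET3 at 2.17 ± 0.36 (adjusted p = 8.1e-05).

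Of the 16 cargo receptor genes 3 rose and 1 fell in vitrification I, and 1 was higher and 4 lower in vitrification II than in vitrification I, with LMAN1, a lectin that carries glycoproteins out of the ER, at -2.44 ± 0.38 (adjusted p = 0.00282). Of 14 GTPases and assembly factors 0 rose and 4 fell in vitrification I, led by RAB1B, a regulator of ER to Golgi traffic, at -1.98 ± 0.42 (adjusted p = 0.00467). In vitrification II 6 rose and 0 fell against fresh control, with RAB6A at 1.83 ± 0.44 (adjusted p = 0.00176). Quantile normalization and median centring each ended the calls of the other 5 (ARFGAP2, GBF1, KLHL12, RAB1A and RAB1B). Against vitrification I, 7 were higher, with RAB1B at 3.15 ± 0.42 (adjusted p = 3.3e-05). Of the 22 tethers and SNAREs 0 rose and 5 fell in vitrification I, led by the SNARE YKT6 at -2.13 ± 0.40 (adjusted p = 0.00239), and 8 (36.4%) were higher and 1 lower in vitrification II than in vitrification I, with NAPA at 1.99 ± 0.34 (adjusted p = 7.9e-05). The higher shares of the EMC and GET genes and of the tethers and SNAREs lie near that of all genes. In vitrification II against fresh control, 12 (15%) of the 80 genes rose and 2 (2.5%) fell, beside 24.6% and 1.09% of all genes. By list, 1 rose and 1 fell of the oligosaccharyltransferase and TRAM genes, and 3 and 0 of EMC and GET. Of the cargo receptors 0 rose and 1 fell, and of the tethers and SNAREs 2 rose and 0 fell. Median centring ended 9 calls of the 80 genes between vitrification II and vitrification I (EMC6, KDELR1, ARFGAP1, KLHL12, RAB1A, BNIP1, RINT1, STX18 and TRAPPC5), and quantile normalization 8 of these, all but TRAPPC5. In vitrification I against fresh control, 8 of the 20 calls among the 80 genes held under all 18 alternatives. Scaling to the non-mitochondrial total ended 5 of the falls (ARFGAP1, ARFGAP2, BNIP1, GORASP2 and STX18). Leaving out fresh control replicate 2 ended 11 of the 20 calls. In vitrification the 1 gene called of all 80 was STT3B, higher by 2.22 ± 0.53 (adjusted p = 0.0408). That call ended without any fresh control library, replicate 2 or 3 of vitrification II, or replicate 2 of vitrification (adjusted p up to 0.449).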

How the data were processed

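Libraries were made with Smart-Seq2, which amplifies full-length cDNA from small inputs, per the labels' protocols. The deposited values are FPKM as made by the authors. TopHat2 2.0.13, Cufflinks 2.2.1, DESeq2 and FastQC are named in the submitters' processing notes, with no role given, and the genome build is not given in the sources used here. The table held 11 of the 12 labelled samples. Vitrification replicate 3 is not among them and was not analysed here; the tests set out for 3 libraries ran on 2 in that group. No 2 libraries were identical (0 pairs). Low values show no steps of whole reads, so no count test or counting interval was made.

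Genes that reached 1 FPKM in 3 or more libraries were kept (9411). Log2(FPKM + 1) was fitted with 1 mean per group over all 11 libraries in limma 3.58.1 (R 4.3.3) with a mean-dependent prior. All tests were two-sided and p-values were adjusted by Benjamini-Hochberg across those 9411 genes. The script was tested on simulated data. The transport genes and the pathway and marker lists were chosen with earlier results of these data known. Values in every library are given for the member of each role with the highest mean FPKM and up to 3 with the smallest F test p. Up to 3 called members per role and comparison with the largest change are described, and SRPRA, SEC31A, SAR1A, TMED5 and other called members named beyond that were added after their values were seen. Overlaps of genes come from the RefSeq table (Sscrofa11.1), in which 55 of the 56 genes matched by symbol. The alternatives were a pseudocount of 0.1, no filter, quantile normalization, median centring, the non-mitochondrial total as scale, a fit of 2 groups only, a replicate block, and each library left out in turn.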

Additional observations from a re-analysis of the deposited data

How the results depend on the processing

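No called transport gene changed sign under any of the 18 alternatives, and 4 of 13 calls in vitrification I against fresh control, 2 of 13 in vitrification II against fresh control and 6 of 20 between vitrification II and vitrification I held under all of them. Without the filter, 7 transport genes were called in vitrification I, 8 in vitrification II and 15 by the F test. In vitrification II against fresh control, quantile normalization gave 2, median centring 7 and the non-mitochondrial total 8. In vitrification against fresh control the non-mitochondrial total gave 3 and a fit of 2 groups only gave 0. The counts under these settings stand without the shares of all genes, and the cause of their differences from the main fit was not tested. Leaving out single libraries gave 0 to 3 calls in vitrification (0 without fresh control replicate 2 or vitrification replicate 2), 6 to 15 in vitrification I (6 without fresh control replicate 2), 6 to 16 in vitrification II (6 without fresh control replicate 2), 13 to 24 between vitrification II and vitrification I (13 without vitrification II replicate 2) and 17 to 25 by the F test (17 without vitrification I replicate 1 or vitrification II replicate 3). Leaving out a vitrification replicate left 1 library in that group, assumed to vary like the others. Calls among all genes against fresh control also fell without fresh control replicate 2. They went from 129 to 0 in vitrification, 1752 to 832 in vitrification I and 2422 to 1017 in vitrification II. With the replicate block the calls were 1, 12, 12 and 18 in the 4 comparisons and 22 by the F test. The replicate numbers share no stated batch, and the correlation of same-numbered libraries' deviations ran from -0.158 to 0.143 over 15 pairs, with 3 of 11 libraries correlating best with their own number. Depth is unknown and limits what can be said of genes near 1 FPKM, such as COPZ2, SEC22C and TMED8. The same limit holds for the called rises of SEC24A, SEC24D and COPG2, whose fresh control means were 0.870, 1.89 and 1.03 FPKM.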
